A study of Mus musculus with 4 samples.

Results

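The cytosolic ribosomal protein genes encode the proteins of the ribosome that works in the cytoplasm. On the array they were taken as every gene whose identifier begins with Rpl or Rps followed by a digit, together with Rplp0, Rplp1, Rplp2 and Rpsa and without the S6 kinase genes and Rps19bp1, which share the prefix. This rule gave 63 of 17916 genes, read by 82 of 25697 probes. It used names only and no measured value. Among the 63 were 28 large-subunit genes, 25 small-subunit genes, 3 genes of the P stalk and 7 paralogues of subunit genes (Rpl3l, Rpl7l1, Rpl22l1, Rpl36al, Rpl39l, Rps4l and Rps27l).

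RNA was taken from C57BL6/J mouse bone marrow, from wild-type (WT) mice and from Btg1-/-;Btg2-/- mice (dKO), which lack a pair of related antiproliferative genes. Btg1 and Btg2 encode proteins that bind the CCR4-NOT complex, the enzyme assembly that shortens the poly(A) tails of mRNAs. Cells with the B-lineage marker B220 were sorted into a CD43+ fraction, labelled as Hardy fractions A to C, and a CD43- fraction, labelled as Hardy fractions D to F. There were 4 groups with 1 array each, so no difference was checked against replicates, and the labels used here give no age and do not say whether animals were pooled. Where a gene's 4 signals are given in array order below, WT comes before dKO and, within a genotype, CD43+ before CD43-.

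A ribosome holds 1 copy of nearly every one of these proteins, and cells make them in matched amounts. Their mRNAs are among the most abundant of the cell and begin with a 5′ terminal oligopyrimidine (TOP) tract, a run of C and T at the very start that lets mTOR signalling through LARP1 hold back or release their translation. In B-cell development, large proliferating precursors make more ribosomes than small resting cells. Several members also have uses outside the ribosome, such as binding MDM2 to stabilise p53.

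Start sites are shown first because the TOP tract is the sequence feature that ties these genes together. RefSeq (GRCm38.p6) listed 60 start sites for 51 of the 63 genes. In the 30 bases around the listed start, 15 on each side, an unbroken pyrimidine run of at least 8 bases was present at 38.3% of the members' starts and at 12.1% of 16549 starts of all genes on the array. The base at the listed start was C at 25% of the members' starts and at 14% of all starts. Over 250 bases before to 50 after the start, searched on both strands, the letters CCGGAAG (an ETS-type site) were found at 38.3% of the members' starts against 12.4% of all, and AAGATGGC (the core of a YY1-type site) at 6.67% against 3.12%. A listed start can lie some bases away from the one a cell uses, and a match is a description of the letters only. The members that the results turn on are printed below on the sense strand, with the longest pyrimidine run in capitals.
Rpl31 (chr1:39367836-39367865, plus strand): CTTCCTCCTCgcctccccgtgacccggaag
Rpl38 (chr11:114668565-114668594, plus strand): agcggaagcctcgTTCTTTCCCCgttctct
Rps24 (chr14:24490663-24490692, plus strand): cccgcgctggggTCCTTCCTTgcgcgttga
Rps27l (chr9:66946071-66946100, plus strand): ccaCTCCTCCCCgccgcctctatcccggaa
Rpl22l1 (chr3:28805493-28805522, plus strand): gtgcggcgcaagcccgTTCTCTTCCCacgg
Rps2 (chr17:24720048-24720077, plus strand): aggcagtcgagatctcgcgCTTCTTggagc
Rpl22 (chr4:152324421-152324450, plus strand): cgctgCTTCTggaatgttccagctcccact
Rpl3l (chr17:24727811-24727840, plus strand): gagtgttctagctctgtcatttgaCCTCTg
Rpl7l1 (chr17:46782642-46782671, minus strand): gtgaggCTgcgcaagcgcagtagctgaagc
The first 5 carry runs of 9 or 10 bases. Those of Rpl38 and Rps24 span the listed start. The runs of Rpl31 and Rps27l lie wholly upstream of it, and that of Rpl22l1 downstream. Rps2 has a run of 6 bases downstream of the listed start and Rpl22 a run of 5 upstream of it. Rpl3l has a run of 5 that starts downstream of it, and Rpl7l1 a run of only 2. Rps24, Rps27l, Rpl22 and Rpl3l each have another listed start, not printed here, whose longest run is 4 bases. No start was listed for Rps27a.

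Most of these genes were at the bright end of every array. Of the 63 genes, 56 were detected on all 4 arrays (detection p under 0.01), 3 on some (Rpl6, Rpl14 and Rpsa) and 4 on none (Rpl17, Rplp2, Rps23 and Rpl39l, the last a paralogue best known from mouse testis). Of the 100 brightest probes, members made up 35, 30, 31 and 28 in array order. Deposited signals, on the scanner's linear scale, ran from about the background median of 134 to 138 up to the 37577 of Rplp1 on the WT CD43+ array. Probes differ in how well they bind, so a signal ranks arrays for a gene and not genes against each other. The 3 members detected on some arrays had signals of 141 to 181, close to background, although Rpsa and Rpl6 are subunits that growing cells need.

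**Figure D1:**
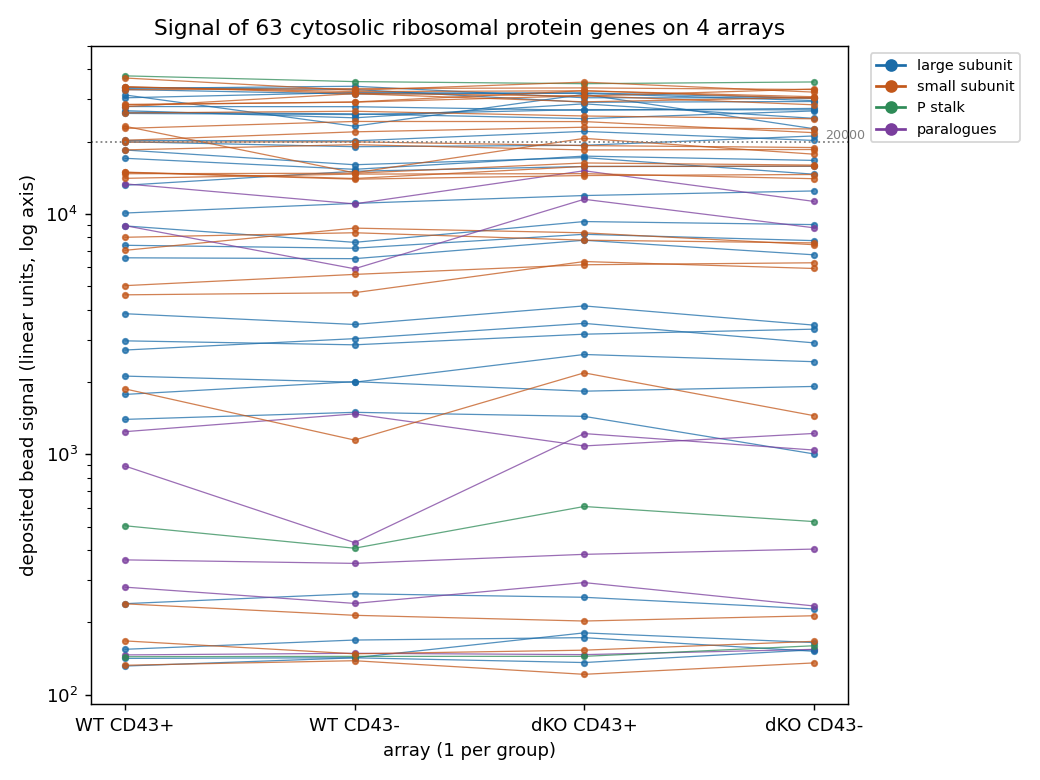
Deposited bead signal (linear units on a log axis) of the 63 cytosolic ribosomal protein genes on the 4 arrays, with 1 line per gene coloured by role and the value of its brightest probe. A band of 21 genes lies above 20000 on all 4 arrays (dotted line), and 4 undetected genes lie near 140. The steepest lines belong to the paralogue Rpl3l, which runs from 429 in WT CD43- cells to 1220 in dKO CD43+ cells, and to Rps27l and Rps27a.

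Some facts of the arrays touch every value that follows. The dKO arrays were brighter than the WT arrays, with mean signals of 662 (CD43+) and 648 (CD43-) against 551 and 555, while the highest signal on an array stayed between 36077 and 39129. Differences are log2 values after background correction and quantile normalization, which removes a general difference in brightness, so a gene with the same deposited signal on a WT and a dKO array comes out lower in dKO. The targeted gene Btg1 read 8610 and 19425 on the WT CD43+ and CD43- arrays and 3459 and 8115 on the dKO arrays, lower by 1.71 and 1.44 on the log2 scale but not absent. No source used here places its probe inside or outside the deletion, and Btg2 was detected on no array and so checks no label. Ptprc, which encodes B220, was detected on all 4 arrays, and Spn, which encodes CD43, only on the CD43+ arrays.

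The first comparison asks what loss of Btg1 and Btg2 did to these transcripts within each fraction. Most members were slightly lower in dKO than in WT cells. In CD43+ cells 41 of 59 tested members were below 0 and 16 above, with a median log2 difference of −0.12 against 0.04 for all 8631 genes tested. In CD43- cells 43 of 57 were below 0 and 12 above, with a median of −0.11 against 0.01 for all 7944 genes tested. The same 57 members were measured in both fractions: 34 were below 0 in both, 6 above 0 in both, and 13 had opposite signs. The pair of comparisons shares no array, but the dKO arrays were the brighter ones in both.

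Few members passed 1.5-fold, the size used here for a call. In CD43+ cells 1 was higher and 3 were lower, where 9.13% of all tested genes were higher and 7.7% lower. In CD43- cells 1 was higher and 4 were lower, where the shares of all tested genes were 10.3% and 8.85%. The members' counts lie near or under these shares. At 2-fold, 0 members were higher or lower in CD43+ cells, against 1.74% and 2% of all genes, and in CD43- cells 1 was higher (Rpl3l) and 1 lower (Rpl22), against 3.65% and 2.59%. An additive limma fit over all 4 arrays, with the fraction as a block and Benjamini-Hochberg adjustment over 8962 genes, called 0 members, with 1 higher and 4 lower at an unadjusted p under 0.05, where 9.58% of all genes were higher and 8.19% lower. It called 0.0223% of all genes higher and 0% lower. The lowest adjusted p of a member was 0.197, for Rpl14. This fit has 1 residual degree of freedom and treats a genotype difference that varies between fractions as noise. Without background correction the same fit called 2 members lower, Rpl22 and Rpl7l1, among 235 genes called higher and 241 lower in all. With genes detected on all 4 arrays it called 1 member, Rpl7l1, among 222 higher and 255 lower.

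Within the large subunit, Rpl22 stood out. Mice survive without this protein but need it for early T-cell development, and in mice it represses its own paralogue Rpl22l1. Rpl22 read 1397, 1494.8, 1438 and 1004 in array order. The dKO CD43- array was the lowest, and the other 3 lay close together before normalization. The log2 difference of dKO from WT was −1.01 ± 0.08 (bead SE) in CD43- cells, a 2.01-fold lower level, and −0.40 ± 0.07 in CD43+ cells. The bead SE covers the reading on the chip only, not animals or RNA preparations. The fitted genotype difference was −0.71 ± 0.21 (SE), with an adjusted p of 0.231 (limma). Rpl22l1 read 364, 352, 383 and 403 in array order, with differences of −0.32 ± 0.16 in CD43+ and −0.06 ± 0.16 in CD43- cells. Between the dKO fractions, CD43- against CD43+, Rpl22 differed by −0.53 and Rpl22l1 by 0.24 ± 0.15.

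Rpl7l1, which encodes a relative of the large-subunit protein Rpl7, was lower by 1.5-fold or more in both fractions, alone among the members, a pattern that 3.13% of all genes tested in both shared. No member was higher by that size in both, against 2.73% of all genes. It read 1242, 1472, 1083 and 1221 in array order, so both dKO arrays lay below both WT arrays even though dKO arrays were brighter in general. The log2 differences were −0.67 ± 0.09 in CD43+ and −0.65 ± 0.08 in CD43- cells, and the fit gave −0.66 ± 0.16 with an adjusted p of 0.197 (limma). A dimmer probe of the gene, which read 212, 215, 218 and 239, gave −0.26 and −0.01.

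Rpl21, another large-subunit gene, read 239, 263, 254 and 227 in array order, and its difference in CD43- cells was −0.77 ± 0.20, with −0.19 ± 0.16 in CD43+ cells. Its second probe gave −0.68 and −0.31. Both probes lie close to background, where a few units of signal make a large log2 difference. Rpl27a differed by −0.40 in CD43+ and −0.41 in CD43- cells, short of the call, and the authors' RMA values put its CD43+ difference at −1.02.

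Of the small-subunit genes, Rps15a had the largest difference and one of the lowest signals. It read 239, 214, 202 and 213, and its difference was −0.93 ± 0.18 in CD43+ and −0.37 ± 0.21 in CD43- cells, but only −0.38 in CD43+ cells when no background was subtracted. Rps15, a bright gene, was lower in dKO in both fractions without passing the call. It read 8001, 8355, 7781 and 7582 in array order, with differences of −0.37 ± 0.07 and −0.46 ± 0.06. Rps25, which encodes a protein that some viral mRNAs need to recruit ribosomes, differed by −0.55 ± 0.16 in CD43- and −0.06 ± 0.15 in CD43+ cells. Rps6, the substrate of the S6 kinases, differed by −0.27 in CD43+ and −0.12 in CD43- cells, and Rps3, which also acts in DNA repair, by −0.17 and −0.20. The dimmer probe of Rps3 gave 0.02 and −0.08, so no direction is given for it in CD43+ cells.

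Other named subunit genes did not reach the call. Rps19 and Rps24, both mutated in human Diamond-Blackfan anaemia, differed by 0.02 and 0.06 in CD43+ and by 0.03 and 0.03 in CD43- cells. The authors' RMA values gave −0.18 and 0.42 for Rps19 and −0.12 and −0.03 for Rps24, and the dimmer probe of Rps24 gave −0.30 and −0.08, so no direction is given for either. Rps14, whose reduced dosage impairs red-cell formation in a human myelodysplastic syndrome, differed by 0.05 and −0.10. Rpl3, which helps shape the catalytic centre, differed by 0.01 and −0.13, Rpl39, which lines the exit tunnel, by 0.00 and −0.03, and Rpl41 by −0.21 and −0.19. Rpl13a differed by −0.04 in CD43+ and −0.42 in CD43- cells. Among genes detected on both arrays, differences above 0 in dKO CD43+ cells included those of Rps4x (0.17), Rpl37 (0.08, but −0.11 in the authors' RMA values), Rps27l and Rps16 (0.07 each).

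In the P stalk, the flexible arm that recruits translation factors, Rplp1 was among the brightest genes of the array. It read 37577, 35566, 34862 and 35443, with differences of 0.00 in CD43+ and 0.05 in CD43- cells. The value of 0.00 arises because the gene held the same rank on both arrays. Rplp0, the scaffold of the stalk, read 504, 407, 606 and 525 and differed by −0.12 and 0.13. The authors' RMA values for Rplp0, which give 1 value per gene, turned these to 0.59 and −0.06, so no direction is given for it.

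Rpl3l showed the largest genotype difference of all members. It is a paralogue of Rpl3 known from mouse heart and skeletal muscle, where it takes the place of Rpl3. It read 894, 429, 1220 and 1042 in array order, so the WT CD43- array was low and the other 3 were high. In CD43- cells dKO was 2.31-fold higher, a log2 difference of 1.21 ± 0.07, whereas in CD43+ cells the difference was 0.05 ± 0.08. The difference between these differences, 1.16, was not tested. The fitted genotype difference was 0.63 ± 0.31, with an adjusted p of 0.355 (limma). Rps27l, a paralogue of Rps27 that p53 induces, differed by 0.07 ± 0.06 in CD43+ and 0.24 ± 0.07 in CD43- cells.

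The calls of Rpl14, Rpsa and Rpl6 rest on signals near background. Rpl14 was detected only in dKO CD43+ cells and was at least 1.15-fold higher there than in WT CD43+ cells, taken against the lowest detected signal. Rpsa, the small-subunit protein also known as the laminin receptor, was detected only in WT CD43+ cells and was at least 1.10-fold lower in dKO CD43+ cells. Rpl6 was counted lower in dKO CD43- cells, but no fold can be given for it. With only the 56 members detected on all 4 arrays, the counts were 0 higher and 2 lower in CD43+ and 1 higher and 3 lower in CD43- cells, and the medians were −0.12 and −0.10. Those past 1.5-fold either way were 3.57% and 7.14% of these members, against 11.2% and 14.6% of the 6958 other genes detected on all 4 arrays.

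**Figure D2:**
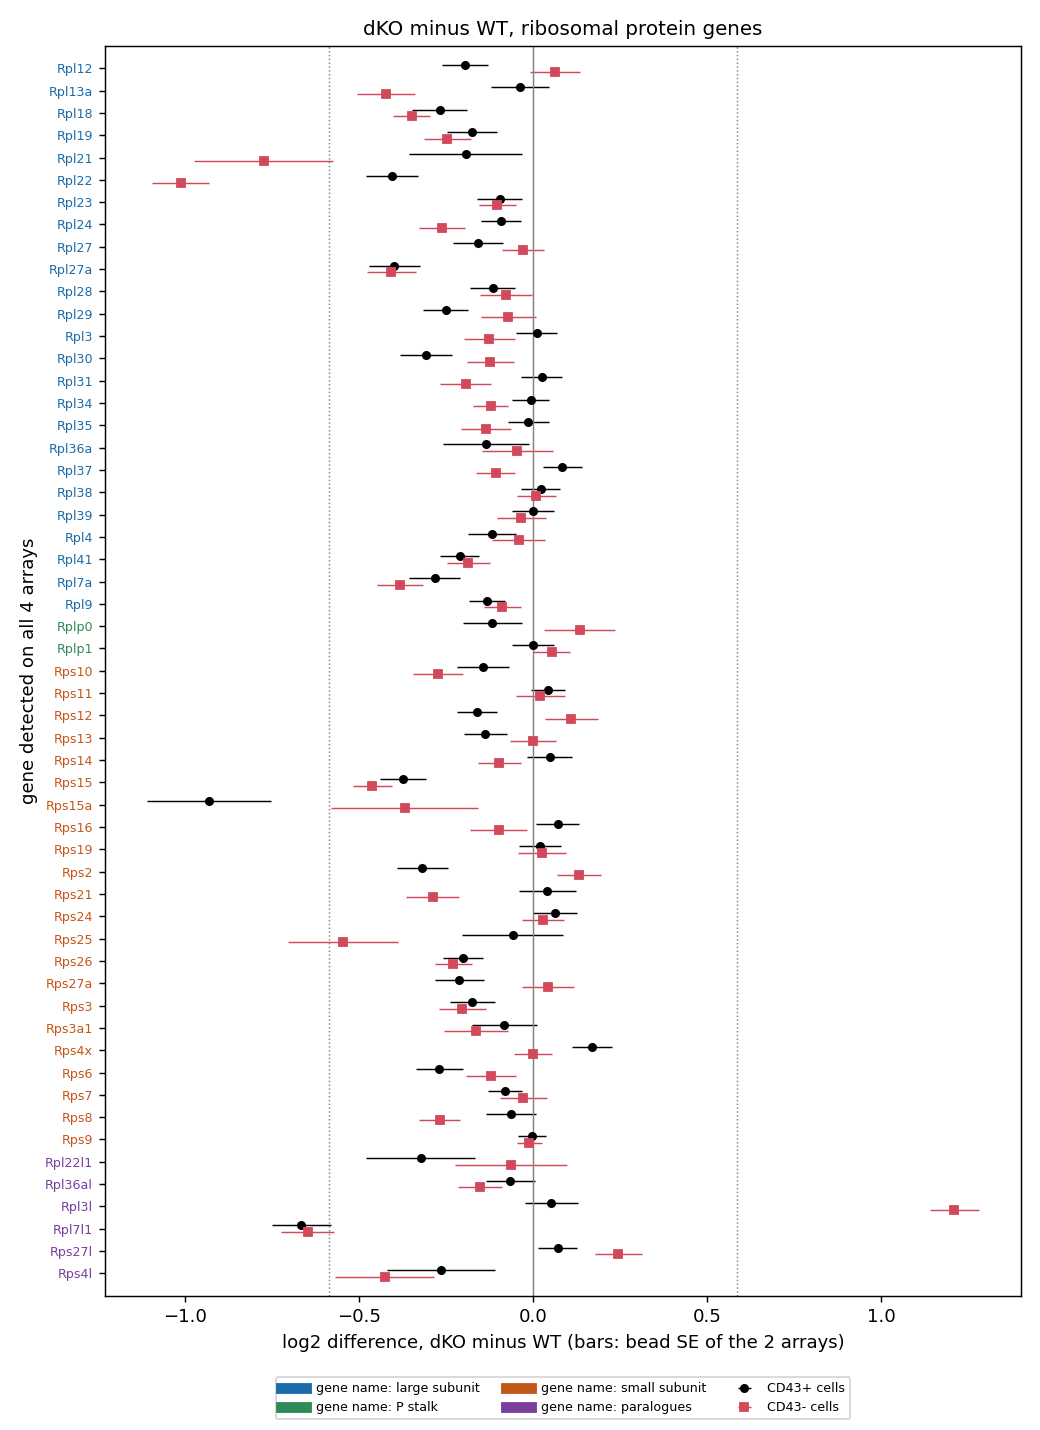
Log2 difference of dKO from WT in CD43+ (black) and CD43- cells (red) for 55 of the 56 ribosomal protein genes detected on all 4 arrays, with bead SEs as bars and dotted lines at 1.5-fold. Most points lie within the dotted lines and to the left of 0. Rpl3l at 1.21 and Rpl22 at −1.01 in CD43- cells lie farthest out, and Rpl7l1 lies beyond the line in both fractions.

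The size of the shift turned on how arrays were brought to one scale. Scaling each array on its median in place of quantile normalization moved the members' medians to −0.38 in CD43+ and −0.33 in CD43- cells and left 4 of 59 and 5 of 57 members above 0. Under each of the 8 alternatives planned for these values, this scaling included, the 2 medians were below 0. In the deposited signals, before any scaling, members detected on all 4 arrays had a median signal ratio of dKO to WT of 1.05 in CD43+ and 0.996 in CD43- cells, while the 6958 other such genes had 1.25 and 1.20. The 34 other genes with a mean signal over 20000, at the top of the range, had 1.04 and 1.09, and the 21 members of that brightness had 1.01 and 0.982.

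Set beside other genes in the same broad band of signal, the members differed from them more below the top of the range than at it. Genes were not matched for signal within a band, so members and other genes there may differ in brightness. After quantile normalization the 21 members over 20000 had median differences of 0.01 in CD43+ and −0.09 in CD43- cells, and the 34 other genes 0.00 and 0.03. The 29 members with mean signals between 1000 and 20000 had −0.17 and −0.15, where 2435 other genes in that range had 0.03 and 0.02. The 6 members under 1000 had −0.23 and −0.22, and 4489 other genes 0.04 and 0.01. Of these 29 members 3.45% passed 1.5-fold in CD43+ and 6.90% in CD43- cells, and of the other genes 6.04% and 11.1%. These shares and medians describe 1 array per group and were not tested. Together the members gave 9.0%, 8.63%, 7.24% and 7.11% of the background-subtracted signal of the arrays, in array order, so both dKO arrays lay below both WT arrays. These shares are of signals before normalization. The dKO arrays were brighter in general, while the highest signal on an array stayed between 36077 and 39129. Whether the lower share reflects RNA or the range of the chip was not tested.

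Members with and without a long pyrimidine run had like medians. The 21 tested members with a run of at least 8 pyrimidines at a listed start had median genotype differences of −0.12 in CD43+ and −0.12 in CD43- cells, and the 27 with shorter runs had −0.12 and −0.10. Nor did the chromosomes of the deleted genes hold many members. The 4 tested members on chromosome 10, where Btg1 lies (Rpl41, Rps12, Rps15 and Rps26), had medians of −0.21 in both fractions, Rpl31 on chromosome 1, where Btg2 lies, had 0.03 and −0.19, and the 54 others had −0.09 and −0.10.

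The second comparison asks how the transcripts changed from the less mature CD43+ to the more mature CD43- fraction. Ribosomal protein transcripts as a group differed little. In WT 33 of 58 tested members were lower in CD43- cells and 23 higher, with a median log2 difference of −0.02 against 0.06 for all 8539 genes tested. In dKO 43 of 58 were lower and 14 higher, with a median of −0.08 against 0.05 for all 8495 genes. With each array scaled on its median, the dKO median turned to 0.04, with 36 of 58 above 0, so the direction in dKO is not settled. In bulk samples such as these, fewer cells of a type and less RNA per cell cannot be told apart.

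The calls were far fewer than among genes at large. In WT 1 member was at least 1.5-fold higher and 4 were lower, where 19.3% of all tested genes were higher and 19.7% lower. In dKO 0 were higher and 1 was lower, where the shares were 15.3% and 17.8%. At 2-fold, 1 member was lower in WT (Rpl3l) and 0 in dKO, with 0 higher in either, against 7.85% of all genes higher and 11.2% lower in WT and 6.06% and 10.6% in dKO. Among genes with mean signals between 1000 and 20000, 6.90% of the members and 28.6% of other genes passed 1.5-fold in WT, and 0% and 23.8% in dKO. No member passed the size in the same direction in both genotypes, where 10.6% of all genes were higher and 13.8% lower in both.

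Rps27a, which encodes a small-subunit protein fused to ubiquitin, was the member whose lower level in CD43- cells passed the additive fit. It read 1871, 1146, 2182 and 1448 in array order, and both CD43- arrays lay below both CD43+ arrays. The log2 difference was −0.82 ± 0.08 in WT and −0.57 ± 0.06 in dKO, the latter 1.48-fold and just short of the call. The fit with genotype as a block gave −0.70 ± 0.17 with an adjusted p of 0.0468 (limma, Benjamini-Hochberg over 8962 genes), where 10.2% of all genes were called higher and 12.9% lower. Under the 8 other settings of this fit the adjusted p ran from 0.00236 to 0.218, and it was under 0.05 in 4 of them. At an unadjusted p under 0.05, 0 members were higher and 4 lower, against 20.4% and 19.4% of all genes.

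Rps2, whose protein lies near the channel where mRNA enters the small subunit, read 23179, 14838, 20641 and 17741 in array order. The CD43- arrays were again the lower ones, and the log2 difference was −0.68 ± 0.07 in WT and −0.23 ± 0.07 in dKO. Rpl31 read 31289, 23194, 31478 and 22645, and its groups likewise separated by fraction and not by genotype. Its differences were −0.36 ± 0.07 in WT and −0.58 ± 0.07 in dKO, and its second probe gave −0.86 and −1.24. Rplp0 differed by −0.40 ± 0.10 in WT and −0.15 ± 0.09 in dKO, with 0.18 and −0.48 in the authors' RMA values. Rps6 differed by −0.23 and −0.08, and Rps19 by 0.15 and 0.15, with −0.31 and 0.29 in the authors' RMA values.

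The paralogues were the class with the largest differences between fractions. The 6 tested paralogues had a median of −0.37 in WT and −0.30 in dKO, against −0.01 and −0.09 for the 26 and 27 tested large-subunit genes and −0.01 and −0.08 for the 24 and 23 small-subunit genes. Rps27l read 8946, 5916, 11514 and 8763, with differences of −0.58 ± 0.06 in WT and −0.41 ± 0.06 in dKO. Rpl36al, an autosomal copy of the X-linked Rpl36a, read 13350, 11021, 15134 and 11285, with differences of −0.42 ± 0.07 and −0.51 ± 0.06, whereas Rpl36a itself gave −0.10 and −0.01. Rps4l, a relative of Rps4x, gave −0.32 ± 0.16 and −0.48 ± 0.15 from signals of 234 to 292. Rpl7l1 went the other way, with 0.26 ± 0.08 and 0.27 ± 0.08.

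Rpl3l again varied most. The signals given above put WT CD43- cells 2.54-fold below WT CD43+ cells, a difference of −1.35 ± 0.09, while dKO CD43- and CD43+ cells differed by −0.19 ± 0.06. Its lower level was thus a matter of 1 array, WT CD43-, on which both of its large differences rest. Rpl3, the widely expressed relative of Rpl3l, differed by −0.10 in WT and −0.24 in dKO. Rpl22 differed by 0.08 ± 0.06 in WT and −0.53 ± 0.09 in dKO, where the dKO CD43- array was the low one. Neither difference between the genotypes was tested.

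**Figure D3:**
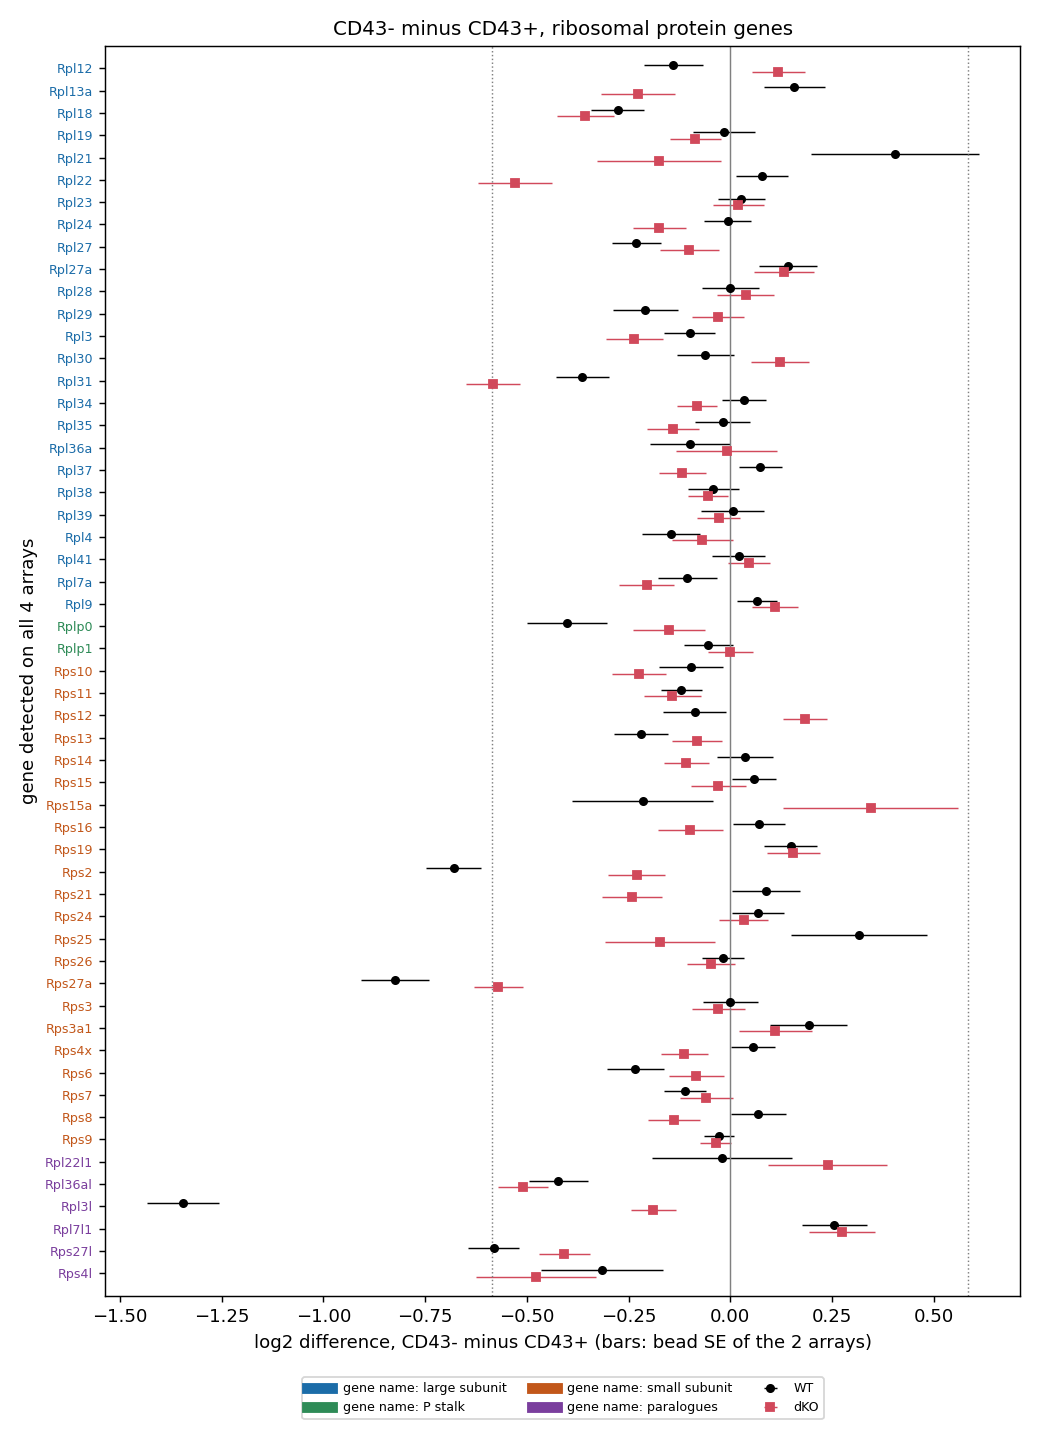
Log2 difference of CD43- from CD43+ cells in WT (black) and dKO (red) for 55 of the 56 ribosomal protein genes detected on all 4 arrays, with bead SEs as bars and dotted lines at 1.5-fold. The points gather near 0, and those below −0.5 in either genotype belong to Rpl3l, Rps27a, Rps2, Rps27l, Rpl31, Rpl22 and Rpl36al.

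Genes read by several probes show how far a single probe can be trusted. There were 10 pairs of probes detected on all 4 arrays, from 9 genes, each pairing the gene's brightest probe with a dimmer one. The dimmer probe gave the larger difference in 8, 7, 9 and 8 of the 10 pairs in the 4 comparisons (dKO against WT in CD43+ and CD43- cells, then CD43- against CD43+ in WT and dKO), and the signs matched in 6, 8, 6 and 6. Rpl38, whose protein is needed for translation of a subset of Hox mRNAs in mouse embryos, is the plainest case. Its bright probe read 32958, 31564, 31939 and 30368 and differed between fractions by −0.04 in WT and −0.05 in dKO. Its dim probe read 1010, 519, 1163 and 716 and differed by −1.16 ± 0.10 and −0.73 ± 0.09. Rpl23, an MDM2-binding large-subunit protein, had a bright probe at 28006, 27964, 27017 and 27501, with genotype differences of −0.10 in both fractions. A dim probe of Rpl23 at 1492, 1465, 1335 and 968 gave −0.63 in CD43+ and −1.04 in CD43- cells. What separates the probes of a gene, such as a transcript form, a copy elsewhere or the range of the chip, was not tested, and no probe sequences were used here. RefSeq names 241 pseudogenes after 47 of the 63 members, with 23 for Rpl31 alone, so a probe may also read such copies.

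**Figure D4:**
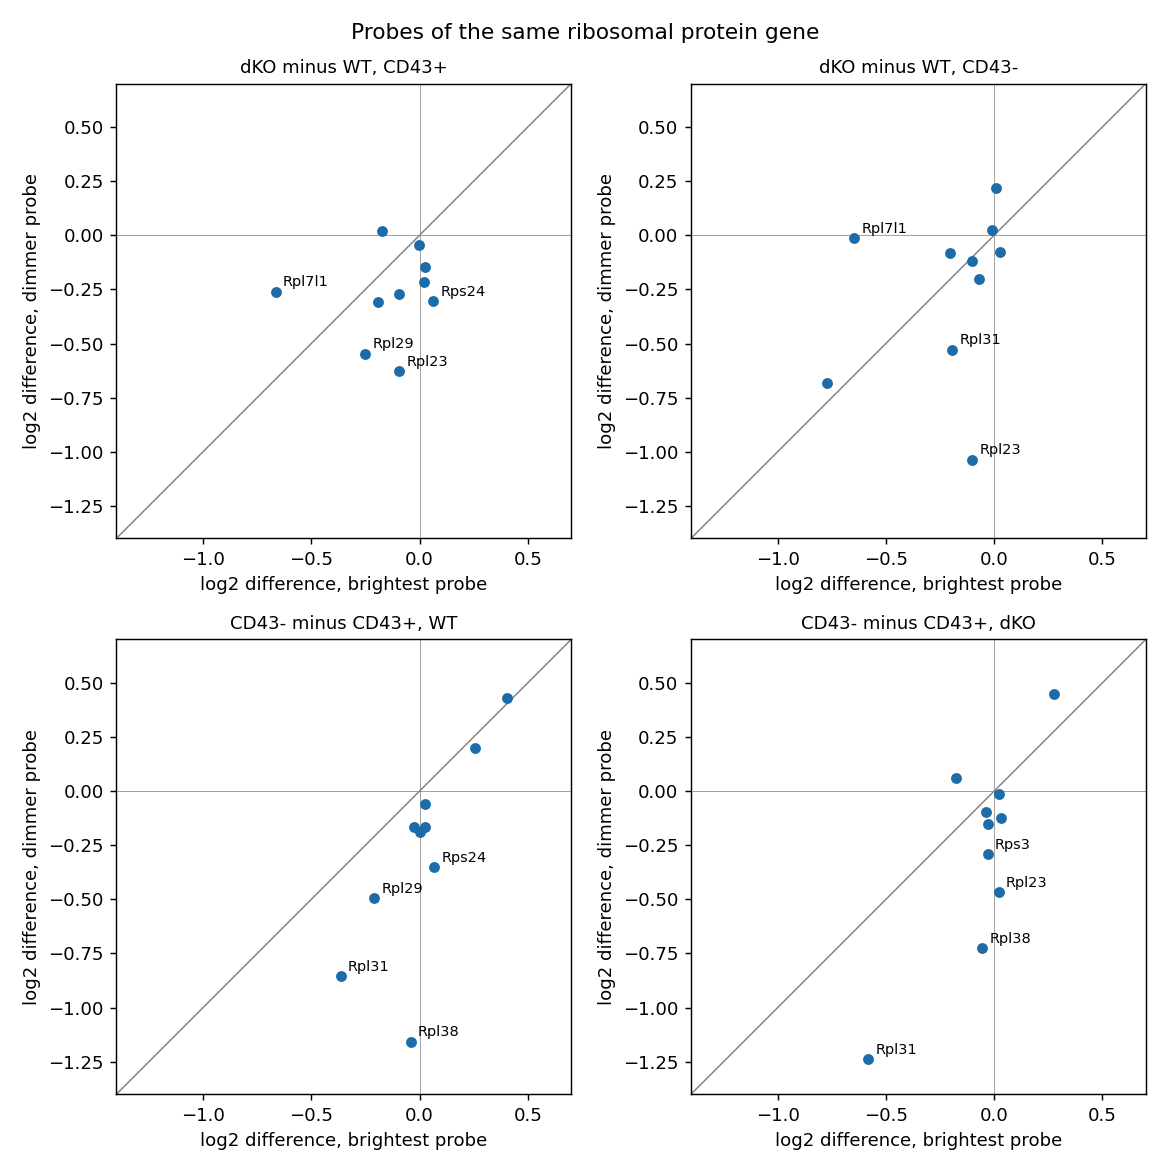
Log2 difference from a dimmer probe (vertical axis) against that from the brightest probe (horizontal axis) of the same gene, for 10 probe pairs of 9 ribosomal protein genes, with 1 panel per comparison and the diagonal marking equal values. Points lie mostly below the diagonal, and Rpl38 (−0.04 and −1.16 in WT) and Rpl23 (−0.10 and −1.04 in CD43- cells) are the farthest from it among the labelled genes.

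Other genes of the ribosome were set beside the members by lists chosen for this purpose. Rack1, the signalling scaffold of the small subunit that the naming rule leaves out, differed by 0.07, −0.05, 0.06 and −0.06 in the 4 comparisons. The 20 tested non-ribosomal genes with TOP mRNAs had median genotype differences of −0.13 in both fractions, close to those of the members. Of these, 3 were at least 1.5-fold lower in each fraction, where 7.7% and 8.85% of all tested genes were, among them Eif4b, a cofactor of the initiation helicase, at −1.87 and −1.82. None was higher by that much in CD43+ cells, and 1 was in CD43- cells, the import receptor gene Ipo5 at 0.97. The ribosome biogenesis genes had a median genotype difference of −0.16 in CD43+ cells, with 38 of 49 below 0 and 11 above. In CD43- cells the median was −0.02, with 26 of 48 below 0 and 22 above. Between the WT fractions, 13 of 49 of these genes were at least 1.5-fold lower in CD43- cells and 0 higher. Their median was −0.31, where 19.7% of all tested genes were lower and 19.3% higher. In dKO 5 of 48 were lower and 1 higher, with a median of −0.16, where 17.8% and 15.3% of all tested genes were. Gnl3 (nucleostemin) at −1.04 and Ncl (nucleolin) at −0.96 were among the lowest in WT. The 67 tested mitochondrial ribosomal protein genes, which serve the separate ribosome of mitochondria, had medians of −0.15 and −0.00 for genotype and −0.10 and −0.03 for fraction.

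**Figure D5:**
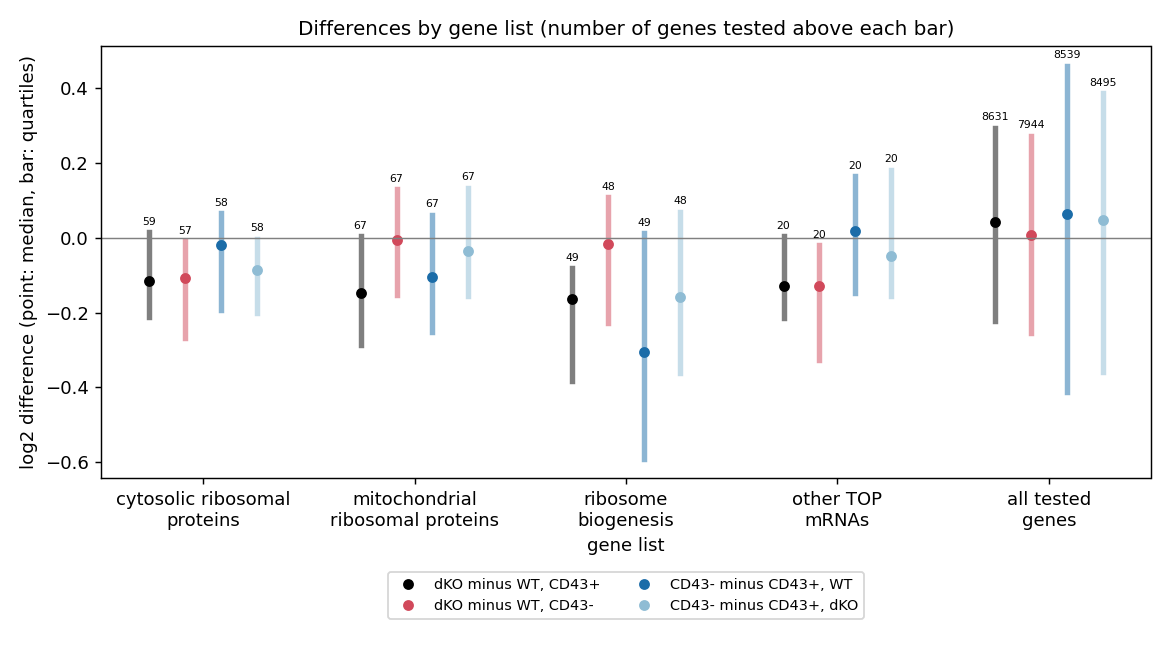
Median (point) and quartiles (bar) of the log2 differences of cytosolic ribosomal protein genes, of 3 related lists and of all tested genes, for the 4 comparisons, with the number of genes above each bar. The cytosolic ribosomal proteins have short bars and medians from −0.12 to −0.02, and ribosome biogenesis genes reach −0.31 between the WT fractions.

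Markers of other cells and of the cell cycle moved with the groups. All 10 mature B-cell markers were higher in CD43- cells by 1.5-fold or more in each genotype. Of 8 tested erythroid genes, 7 were higher by that much in each genotype and 1 was below 0. Their medians were 1.05 in WT and 1.63 in dKO. Of all tested genes, 19.3% in WT and 15.3% in dKO were higher by that much. Summed signals over background of 10 plasmacytoid dendritic cell markers were 71914 (WT) and 104428 (dKO) in the CD43+ fraction and 21847 and 31746 in the CD43- fraction, with 9 detected on each array. These sums are of signals before normalization, and 1 bright gene, Ly6d, alone read 14860 (WT) and 17336 (dKO) on the CD43- arrays. After normalization, 8 of the 9 tested were at least 2-fold lower in CD43- than in CD43+ cells in each genotype, with medians of −3.78 in WT and −3.02 in dKO. Between genotypes their median difference was 0.21 in CD43+ and 1.44 in CD43- cells, and in CD43- cells 5 of 9 were at least 2-fold higher in dKO, among them Siglech at 2.95. Summed signals of 11 NK markers, also before normalization, were 15544 (WT) and 28060 (dKO) in CD43+ cells, with 10 detected. In CD43- cells they were 1045 and 2258, with 4 detected. After normalization, 10 of 10 tested NK markers lay above 0 in dKO CD43+ cells, with a median of 0.55. In CD43- cells 2 of 4 lay above 0 and 2 below, with a median of 0.22. Between genotypes, 11 neutrophil markers of the CD43+ fraction summed to 29866 in WT and 8470 in dKO. In the CD43- fraction they summed to 9664 and 10385. After normalization, 11 of 11 lay below 0 in dKO CD43+ cells, with a median of −2.50. In CD43- cells 10 of 11 lay below 0 and 1 above, with a median of −0.36. The 13 S-phase genes of the CD43- fraction summed to 17714 in WT and 38498 in dKO, and after normalization 13 of 13 differences lay above 0, with a median of 0.70. Those of the CD43+ fraction summed to 27007 and 37615, with 8 of 13 above 0 and a median of 0.12. The part of these in the members' differences was not tested.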

How the data were processed

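Each array was assigned to its group from its title in the labels. Per the file headers, the deposited signal table is a GenomeStudio export without normalization, which holds a mean bead intensity per probe on a linear scale, the SD and number of beads, and a detection score, a fraction from 0 to 1. The detection p used here is 1 minus that score. Another table and the series matrix hold the authors' log2 values, made with RMA per the file headers and the submitters' processing notes. Both tables gave identical values for the 18119 identifiers they share, and the matrix columns had medians of 3.78, 3.77, 3.79 and 3.77. The linear ratio per gene that the authors also deposited was not used. How the authors ran the RMA software is not given in the sources used here.

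Signals were processed with neqc in limma 3.58.1 (R 4.3.3), which fits normexp background from the detection p, adds an offset of 16, normalizes quantiles over the 4 arrays and takes log2. Identifiers were named through a RefSeq gene table (GRCm38.p6), and of the 63 members 61 matched a current symbol and 2 a synonym. The brightest probe stood for a gene. Genes detected on either of the 2 arrays compared were kept, and a call was a 1.5-fold difference, with 2-fold as an alternative. The offset shrinks differences, and signals near the top of the range carry less contrast. Quantile normalization can enlarge a genotype difference as well as shrink it. Rpl22 had deposited signal ratios of dKO to WT of 1.03 in CD43+ and 0.67 in CD43- cells. After background correction and normalization its log2 differences were −0.40 and −1.01. Additive limma fits (lmFit, eBayes) used all 4 arrays. Their p-values take the fractions as independent, which the labels do not state. The number of arrays limits the precision, and the bead SE covers the chip only. The steps were tested on simulated data that held no general difference in brightness between arrays and no difference between fractions. That test therefore says nothing of either.

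The members and lists were chosen with earlier results of these data known. Genes were named by a rule: the 6 detected members with the largest difference in each direction of a comparison and the same sign in RMA, a fixed set of well-known subunits, members past 1.5-fold in both fractions or both genotypes, and the largest of each related list. Rpl36a, Rpl37 and Rps26 are named for context, and the second probes of Rpl21, Rpl23, Rpl31, Rpl38, Rpl7l1, Rps24 and Rps3 were singled out after their values were seen. Ribosomal protein genes not among the 63 were not analysed here, and values of 1 member are not reported here on their own. Alternatives changed the scaling, background, offset, values, probe rule, filter or threshold, and 1 more, without the paralogues, was added after seeing the data.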

Additional observations from a re-analysis of the deposited data

Results flagged for a closer look

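Rpl6 differed between fractions in opposite directions in the 2 genotypes. CD43- minus CD43+ was 0.65 on the log2 scale in WT and −0.63 in dKO. Rpl6 read 154, 169, 173 and 151 in array order (WT first, CD43+ before CD43-), with background medians of 134 to 138, and was detected on 2 of the 4. Its WT difference is at least 1.22-fold when taken against the lowest detected signal, and no fold can be given in dKO. The difference between the genotypes was not tested.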

How the results depend on the processing

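No result reversed its direction as a call. Of 1144 single-gene values under alternatives, 938 moved by less than their bead error and 206 by more, most of them (59 and 60) under the 2 scalings in place of quantile normalization. The 938 include 136 values with genes detected on all 4 arrays and 144 without a filter. Those could not move, because these settings changed only which genes were kept. The members' genotype medians of −0.12 (CD43+) and −0.11 (CD43-) became −0.38 and −0.33 with each array scaled on its median, and −0.38 and −0.33 on the median of the other probes. The fraction median in dKO became 0.043 and 0.044 under these scalings. Under both, lower calls in dKO CD43+ cells were 5, higher calls in WT CD43- cells 0, and the fraction fit called 0 members. For all genes in CD43+ cells, the split of 788 higher and 665 lower became 569 and 842 with median scaling.

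At 2-fold, dKO CD43+ cells had 0 members higher and 0 lower, dKO CD43- cells 1 lower, WT CD43- against CD43+ cells 0 higher and 1 lower, and dKO 0 lower. Without background correction the counts were 0 higher and 1 lower (dKO CD43+), 2 lower (dKO CD43-), 0 higher (WT fractions) and 0 lower (dKO fractions), and the fits called 2 members for genotype (all genes: 235 higher, 241 lower) and 6 for fraction (1462, 1458). With an offset of 50 they were 0 higher (dKO CD43+), 0 higher (WT fractions) and 0 lower (dKO fractions), and the fraction fit called 4 (all genes: 1350, 1406). With genes detected on all 4 arrays those 3 counts were also 0, and the fits called 1 for genotype (all genes: 222, 255) and 5 for fraction (1461, 1025), with fewer genes tested. The authors' RMA values gave 3 higher in dKO CD43+ cells, 3 lower between dKO fractions and 0 called for fraction. The mean of detected probes gave 2 lower between dKO fractions and 2 called for fraction. Without a filter the fraction fit called 0. Without the paralogues, an alternative chosen after seeing the data, 0 members were higher in dKO CD43- cells, since Rpl3l is a paralogue. Other causes were not tested. Arrays could not be paired by animal, because each group holds 1 array and no replicate numbers pair them. The additive fits block on fraction or genotype only. No array was left out, since each is the whole of its group.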
